A study of Mus musculus with 4 samples.

Results

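The 10 secondary and tertiary granule genes Ltf, Camp, Ngp, Lcn2, Mmp8, Mmp9, Cd177, Retnlg, Chil3 and Fcnb were followed across 4 single-cell libraries of mouse bone marrow. They were found by their symbols in the deposited feature lists, where each had 1 entry, and they make up 10 of 32285 gene features. The libraries were made from Kit-positive, CD45.2-positive bone marrow cells 10 weeks after transplantation, with 10x Genomics 3′ chemistry and barcoded antibodies. Kit (CD117) is the stem cell factor receptor, carried by stem and progenitor cells, and CD45.2 is an allelic form of a pan-leukocyte surface protein. Each of the 4 groups had 1 library: a control, marrow with Mll3 deleted, marrow with Mll4 deleted, and marrow with both deleted. Mll3 and Mll4 are the histone methyltransferases encoded by Kmt2c and Kmt2d. Strain, the allele or recombinase behind each deletion, the number of animals and their age are not given in the sources used here. With 1 library per group no test was possible, so what is compared below is libraries rather than conditions. The intervals cover counting error only, and the 3 comparisons share 1 control library.

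Neutrophils pack their antimicrobial proteins into granules that are filled one after another as the cell matures. Primary (azurophil) granules with myeloperoxidase and elastase are made in promyelocytes, secondary (specific) granules in myelocytes and metamyelocytes, and tertiary (gelatinase) granules later, when the cell nears release. The order follows when each gene is transcribed, and the factors C/EBPε, C/EBPα and PU.1 are known to act at granule genes. Most specific and gelatinase granule genes are therefore little expressed in the earliest Kit-positive progenitors and belong to the mature end of the lineage.

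Sequences before the start sites are shown for the members that the results turn on: Ltf, Camp and Ngp, which carry most of the signal together with Lcn2 and Chil3, Fcnb, which in control fell again in the most mature cells, and Mmp8 and Retnlg, which in control were highest there. They come from RefSeq promoter windows on GRCm38.p6, in which 9 of the 10 members were found by symbol, Mmp9 being the member not matched. Each window searched was the 250 bases before the RefSeq start, and only the bases outside the GENCODE M21 gene are printed, 5′ to 3′ on the strand of the gene. Capitals mark a C/EBP core (TTGCNNAA) or a PU.1 core (AGGAAG), on either strand.
Ltf, chr9:111019042-111019270, plus strand: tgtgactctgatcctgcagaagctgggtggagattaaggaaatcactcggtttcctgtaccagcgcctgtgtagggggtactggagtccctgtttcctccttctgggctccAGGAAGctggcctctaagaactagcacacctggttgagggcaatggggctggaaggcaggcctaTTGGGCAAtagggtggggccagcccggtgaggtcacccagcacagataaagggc
Camp, chr9:109849618-109849706, minus strand: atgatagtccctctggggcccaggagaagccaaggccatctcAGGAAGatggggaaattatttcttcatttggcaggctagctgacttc
Ngp, chr9:110419558-110419746, plus strand: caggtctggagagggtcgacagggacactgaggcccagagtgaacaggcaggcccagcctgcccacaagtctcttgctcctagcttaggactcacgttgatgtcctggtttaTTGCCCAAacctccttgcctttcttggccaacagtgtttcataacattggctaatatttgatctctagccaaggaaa
Fcnb, chr2:28084886-28085128, minus strand: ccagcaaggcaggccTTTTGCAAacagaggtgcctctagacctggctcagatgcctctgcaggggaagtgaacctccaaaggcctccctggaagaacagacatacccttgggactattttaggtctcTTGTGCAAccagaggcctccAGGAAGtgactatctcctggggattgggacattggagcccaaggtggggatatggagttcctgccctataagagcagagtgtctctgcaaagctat
Mmp8, chr9:7558179-7558428, plus strand: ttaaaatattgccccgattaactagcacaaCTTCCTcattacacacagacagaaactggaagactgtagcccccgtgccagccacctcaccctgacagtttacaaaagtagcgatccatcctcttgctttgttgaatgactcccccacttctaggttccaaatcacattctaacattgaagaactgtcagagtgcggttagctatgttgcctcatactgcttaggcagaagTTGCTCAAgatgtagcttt
Retnlg, chr16:48872358-48872607, plus strand: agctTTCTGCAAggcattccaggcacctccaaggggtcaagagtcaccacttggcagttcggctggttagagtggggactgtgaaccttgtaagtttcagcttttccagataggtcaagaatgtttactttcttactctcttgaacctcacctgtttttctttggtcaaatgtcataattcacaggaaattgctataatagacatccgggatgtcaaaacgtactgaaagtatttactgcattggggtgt
In the whole windows, 6 of 9 members held the C/EBP core (Ltf, Ngp, Lcn2, Mmp8, Retnlg and Fcnb), against 9.56% of 32851 RefSeq windows of the same length. The PU.1 core was present in 6 of 9 (Ltf, Camp, Lcn2, Mmp8, Chil3 and Fcnb), against 29.5% of windows. A TATAAA box was found in 1 of 9, Cd177, against 12.4% of windows. None of these matches overlapped another in the members, and a match describes the letters only.

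The libraries held 6622 to 10001 barcodes, of which 5350 to 7146 were kept after filters and doublet removal. Median UMIs per kept cell were 15754 for control, 16963.5 for the label Mll3, 5142 for Mll4 and 9965 for Mll3/4. Reads at the 3′ end need not lie in a deleted part, so they do not check the labels. Kmt2c stood at 47.9 CPM in control and at 27.2, 59.2 and 34.8 CPM in the Mll3-, Mll4- and Mll3/4-labelled libraries, and Kmt2d at 21.6 to 25.8 CPM in all 4 libraries. Xist was at 0.519 CPM in the library labelled Mll4 and at 954.8 to 1839 CPM in the other 3, while genes of the Y chromosome summed to 171.9 CPM there and to 300.5 to 435.6 CPM in the other 3. The library labelled Mll4 was thus lowest for both. Xist is made from the inactive X chromosome of female cells, so the sex of the cells may differ between that library and the other 3. Any such difference coincides with the label Mll4, and its part in the results was not tested. Pairs of libraries shared 9 to 24 barcodes. Cells were clustered without the 10 members and classed from fixed markers, and the 8 neutrophil markers (S100a8, S100a9, Cebpe, Ly6g, Cxcr2, Wfdc21, Ifitm6 and Mxd1) were each detected in over 10% of the neutrophil-like cells of control, Mll3- and Mll4-labelled libraries.

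The members were almost wholly transcripts of neutrophil-like cells. Of all their UMIs, 98.5% lay in this class in control, 97.0% in the library labelled Mll3, 98.7% in the library labelled Mll4 and 94.2% in the library labelled Mll3/4. The same class held 15.6%, 10.4%, 42.8% and 0.649% of the UMIs of all genes. These shares describe the class and test nothing, since S100a8 and other markers that vary with the members built it. Fcnb, the gene of the lectin ficolin B, was the member with the widest spread: 91.3% of its control UMIs were in neutrophil-like cells and 7.86% in granulocyte progenitor-like cells, the class marked by Elane, Mpo and Prtn3. Those Fcnb shares were 82.4% and 15.9% in the library labelled Mll3.

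The number of neutrophil-like cells differed widely between the libraries. They made up 1757 of 7146 kept cells in control (24.6%, exact 95% binomial interval 23.6% to 25.6%) and 1001 of 5860 in the library labelled Mll3 (17.1%, 16.1% to 18.1%). They were 2687 of 5350 cells in the library labelled Mll4 (50.2%, 48.9% to 51.6%) and 24 of 6917 in that labelled Mll3/4 (0.347%, 0.222% to 0.516%). That last library consisted of B-cell progenitor-like cells to 98.7%. The cells were sorted on Kit, and the median CD117 antibody count was 56 in control neutrophil-like cells and 272 in control granulocyte progenitor-like cells. The part of the Kit gate in these shares was not tested. Different clusters also hold the class. Clusters 1 and 14 hold most of it in control and the library labelled Mll3, and clusters 2 and 11 most of it in the library labelled Mll4, where the median neutrophil-like cell had 4900 UMIs against 13585 in control.

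**Figure D1:**
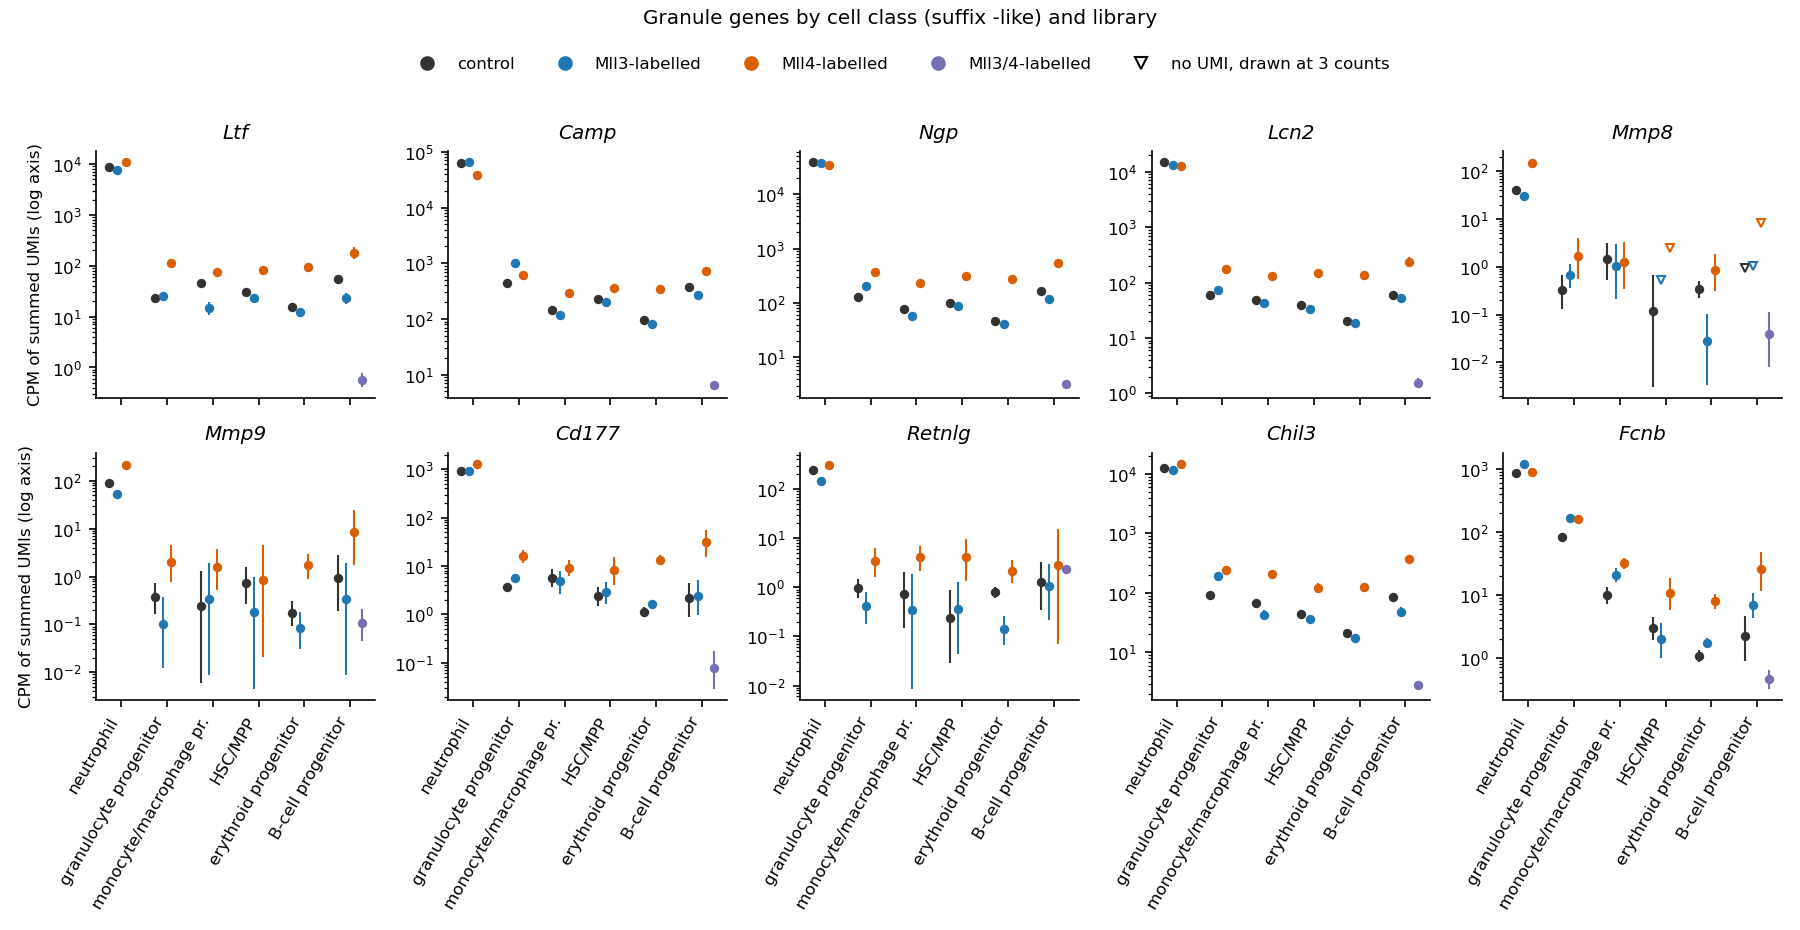
Level of each member (CPM of summed UMIs, log axis) in 6 cell classes of each library with at least 50 cells of the class; bars are exact 95% Poisson intervals and open triangles, drawn at the level of 3 counts, mark no UMI. Neutrophil-like cells stand highest for all 10 members, and only Fcnb has a clear step between granulocyte progenitor-like cells and the remaining classes.

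Over all kept cells, 9 of 10 members were at least 2-fold higher than control in the library labelled Mll4, 10 of 10 at least 2-fold lower in that labelled Mll3/4, and 2 of 10 at least 2-fold lower in that labelled Mll3; the shares of all genes passing these limits were 5.74%, 11.7% and 0.467%. Over whole libraries, fewer cells of a type and less RNA per cell cannot be told apart. Ltf, encoding the iron-binding protein lactoferrin, was at 1386 CPM in control (95% Poisson interval 1380 to 1392), 800.4 in the library labelled Mll3 (795.7 to 805.2), 4665 in the library labelled Mll4 (4641 to 4688) and 36.2 in the library labelled Mll3/4 (34.9 to 37.6). Camp, the gene of the antimicrobial peptide CRAMP, was at 9839, 6951, 16615 and 322 CPM in the same order. None of these intervals overlap.

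Ngp, encoding neutrophilic granule protein, a cystatin relative, was at 6015 CPM in control, 3968 with the label Mll3, 14826 with Mll4 and 210.3 with Mll3/4. Lcn2, the siderophore-binding lipocalin that keeps iron from bacteria, was at 2331, 1429.8, 5640.2 and 84.3 CPM. Cd177, a surface glycoprotein also stored in specific granules, was at 146, 97.9, 551 and 5.92 CPM. These 3 genes followed the order of the libraries seen for Ltf and Camp. Mmp8, the neutrophil collagenase, was scarce at 6.69 CPM in control (6.29 to 7.11), 3.35 with the label Mll3 (3.05 to 3.68), 63.4 with Mll4 (60.7 to 66.2) and 0.631 with Mll3/4 (0.467 to 0.834). Among the members Mmp8 had the highest ratio between the library labelled Mll4 and control, 9.48-fold without a pseudocount.

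Mmp9, encoding gelatinase B of tertiary granules, was at 14.5 CPM in control, 5.52 with the label Mll3, 94.3 with Mll4 and 1.17 with Mll3/4. Retnlg, a resistin-like secreted protein of neutrophils, was at 38.6, 15.1, 136 and 15.8 CPM, so the Mll3- and Mll3/4-labelled libraries had overlapping intervals (14.4 to 15.8 and 14.9 to 16.7). The level with the label Mll3/4 rests on few cells, 1 of which held 470 Retnlg UMIs. Chil3, the chitinase-like protein Ym1, was at 1985, 1264, 6369 and 78.5 CPM. Fcnb was at 146 CPM in control and 148 in the library labelled Mll3, with overlapping intervals (144.5 to 148.3 and 146 to 150.1), at 397 in the library labelled Mll4 and at 6.43 in the library labelled Mll3/4. Fcnb was the only member that was not lower in the library labelled Mll3. Reads of Chil3, Retnlg and Fcnb could in principle be shared with their relatives Chil4, Retnla and Fcna, and of the 6 relatives looked at only Fcna reached 20 counts in any of these comparisons.

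A member was counted as different when its CPM plus a pseudocount of 1 differed at least 2-fold from control, with at least 20 counts in either library; the pseudocount makes the differences of low genes look smaller. By this measure 2 of 10 members were lower in the library labelled Mll3, Retnlg with a log2 ratio of -1.30 and Mmp9 with -1.25, where 0.467% of all genes tested were lower and 0.199% higher. The median of the members was -0.68 and that of all genes -0.04. With the label Mll4, 9 of 10 were higher, where 5.74% of all genes were, led by Mmp8 at 3.07 and Mmp9 at 2.62, and Camp at 0.76 was the exception. The medians there were 1.72 for the members and 0.02 for all genes. All 10 of 10 were lower with the label Mll3/4, where 11.7% of genes were. Ltf was 38.3 times lower and Camp 30.6 times lower there, whereas Retnlg was 2.44 times lower. The Retnlg value rests on few cells. In that library 1 neutrophil-like cell held 470 of the 1049 Retnlg UMIs of its class, and 1 B-cell progenitor-like cell held 170 of 177. The members' median was -4.52 and that of all genes -0.01.

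**Figure D2:**
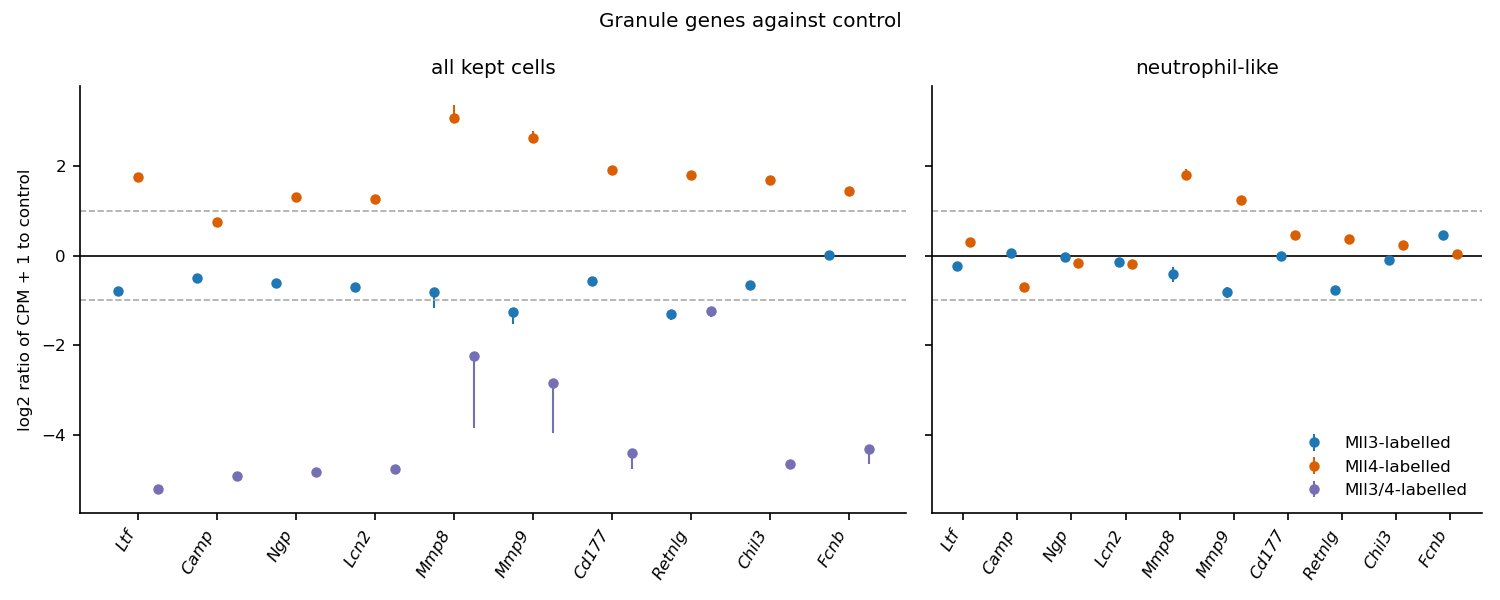
Log2 ratio of CPM + 1 to control for each member over all kept cells and within neutrophil-like cells, with bars from the exact Poisson limits of both libraries. Over all kept cells the Mll4-labelled points lie between 0.76 and 3.07 and the Mll3/4-labelled points between -5.22 (Ltf) and -1.24 (Retnlg), while within neutrophil-like cells only Mmp8 and Mmp9 of the library labelled Mll4 lie beyond 1 or -1.

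Within neutrophil-like cells most members were at similar levels in the 3 libraries that had enough of these cells. Ltf was at 8757 CPM in control, 7507 in the library labelled Mll3 and 10777 in the library labelled Mll4. Ngp was at 38183, 37429 and 34277 CPM, Lcn2 at 14776, 13457 and 12989 CPM, and Cd177 at 923, 917 and 1271 CPM. Chil3 was at 12508.5, 11652.5 and 14671 CPM. For these 5 genes the libraries stayed within a 2-fold range. Camp was at 62147 CPM in control and 64613 in the library labelled Mll3, and at 38330.1 in the library labelled Mll4, a log2 ratio of -0.70 to control. The lower and upper quartiles of single cells for Camp were 53259.8 and 70202 CPM in control and 32626 and 43176 CPM in the library labelled Mll4, so the middle ranges of cells did not overlap.

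The scarcer members differed more. Mmp8 was at 41.2 CPM in control neutrophil-like cells (38.7 to 43.9), 30.9 in the library labelled Mll3 (28.0 to 33.9) and 147 in the library labelled Mll4 (141 to 153). Mmp9 was at 91.7, 52.1 and 218 CPM, and Retnlg at 244, 143 and 314 CPM. All 3 were lowest with the label Mll3 and highest with the label Mll4. Fcnb was at 858 CPM in control, 1175 in the library labelled Mll3 and 882 in the library labelled Mll4. Against control, 0 of 10 members were 2-fold different in the library labelled Mll3, where 0.605% of all genes were in either direction; the lowest log2 ratios were those of Mmp9 (-0.80) and Retnlg (-0.77) and the highest that of Fcnb (0.45). Against control, 2 of 10 were higher in the library labelled Mll4, Mmp8 (1.81) and Mmp9 (1.24), against 2.93% of all genes. The 24 neutrophil-like cells of the library labelled Mll3/4 were too few for this comparison. They still carried 5497 CPM of Ltf, 46668 of Camp, 31031 of Ngp, 12481 of Lcn2 and 742 of Fcnb, and had 2081 CPM of Retnlg (1957 to 2211). Of those Retnlg UMIs 1 cell held 44.8%.

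Depth differed between the libraries, so shares of cells with a UMI were also taken after thinning each cell to 2000 UMIs. At that depth Mmp8 was seen in 3.94% of control neutrophil-like cells, 2.11% in the library labelled Mll3 and 11.8% in the library labelled Mll4; without thinning the shares were 6.72%, 3.70% and 17.0%. Mmp9 was seen in 12.8%, 7.62% and 20.6% of thinned cells and Retnlg in 17.8%, 11.3% and 21.9%. Fcnb was seen in 62.9%, 71.1% and 56.9%. The order of the libraries was that of the CPM for Mmp8, Mmp9 and Retnlg. For Retnlg the unthinned shares, 55.4%, 38.7% and 36.8%, put the shallow Mll4-labelled library lowest, and no order is read from them.

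In granulocyte progenitor-like cells, an earlier stage, the members were at a small part of their neutrophil-like level, except Fcnb. Camp was at 448 CPM in control, 1027 in the library labelled Mll3 and 622 in the library labelled Mll4. Chil3 was at 92.05, 192 and 239 CPM, and Ltf at 22.9, 25.2 and 115 CPM. Fcnb was at 82.6, 166 and 157 CPM, which was 9.64%, 14.1% and 17.8% of its neutrophil-like level, whereas in erythroid progenitor-like cells it was at 0.125%, 0.144% and 0.899%. Thinned to 2000 UMIs, 8.38% of control granulocyte progenitor-like cells and 0.169% of control erythroid progenitor-like cells had a UMI of Fcnb; the medians before thinning were 18680 and 42526 UMIs in the cells deep enough to be thinned.

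Of the 8 members with enough counts in this class, 2 were 2-fold higher in the library labelled Mll3, Camp (1.19) and Chil3 (1.05), where 0.267% of all genes were higher; Fcnb lay just inside the threshold. With no doublet removal 0 members were 2-fold higher and 2 lower in this comparison, and the log2 ratios were 0.47 for Camp and 0.32 for Chil3. Of the same 8 members, 6 were higher in the library labelled Mll4, where 5.94% of genes were, among them Ltf (2.28), Cd177 (1.87), Lcn2 (1.58) and Ngp (1.52); after thinning it was 2 of 6. The members were unevenly spread within the class. The top 1% of control cells held 59.4% of its Camp UMIs. Fcnb was at 1.68 CPM in cluster 7 of control, at 86.2 in cluster 15 and at 248 in cluster 17, and Camp at 163, 142 and 1372 CPM. In cluster 17 Fcnb was at 436 CPM with the label Mll3 and 931 with the label Mll4, and Camp at 2618 and 1923 CPM. These clusters are groups of cells drawn from the same data, so the steps between them are descriptions.

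To compare libraries at matched maturity, cells of both classes were placed by the share of primary granule UMIs (Mpo, Elane, Prtn3 and Ctsg) in the sum of these and S100a8 and S100a9. The share falls as neutrophils mature, and 5 ranges were used: at least 0.9, 0.5 to 0.9, 0.1 to 0.5, 0.02 to 0.1, and under 0.02. In control they held 613, 390, 95, 54 and 1703 cells. S100a8 and S100a9 vary with the members, so part of any rise along these ranges is built into the score. Along the ranges the members came on in different places. Fcnb was at 29.5, 111, 527, 2359 and 805 CPM in control, a peak in the range 0.02 to 0.1 and a fall to 34.1% of it in the most mature cells. The same rise and fall of Fcnb was present with the label Mll3 (45.4, 215, 2149, 2615 and 1007 CPM) and with the label Mll4 (19.6, 63.3, 841, 1981 and 866 CPM).

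The remaining members kept rising to the most mature range in control. In the range 0.02 to 0.1, Camp had reached 96.3% of its highest level, Chil3 65.0%, Ngp 60.1%, Cd177 50.5%, Lcn2 37.8%, Retnlg 32.2%, Mmp8 30.2%, Mmp9 29.9% and Ltf 22.5%. Camp was therefore near its full level a step before Ltf. The values were 84.2% for Camp and 54.9% for Ltf in the library labelled Mll4, and 100% and 26.0% in that labelled Mll3. The ranges with few cells rest on little: control had 54 and the library labelled Mll4 34 cells between 0.02 and 0.1.

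**Figure D3:**
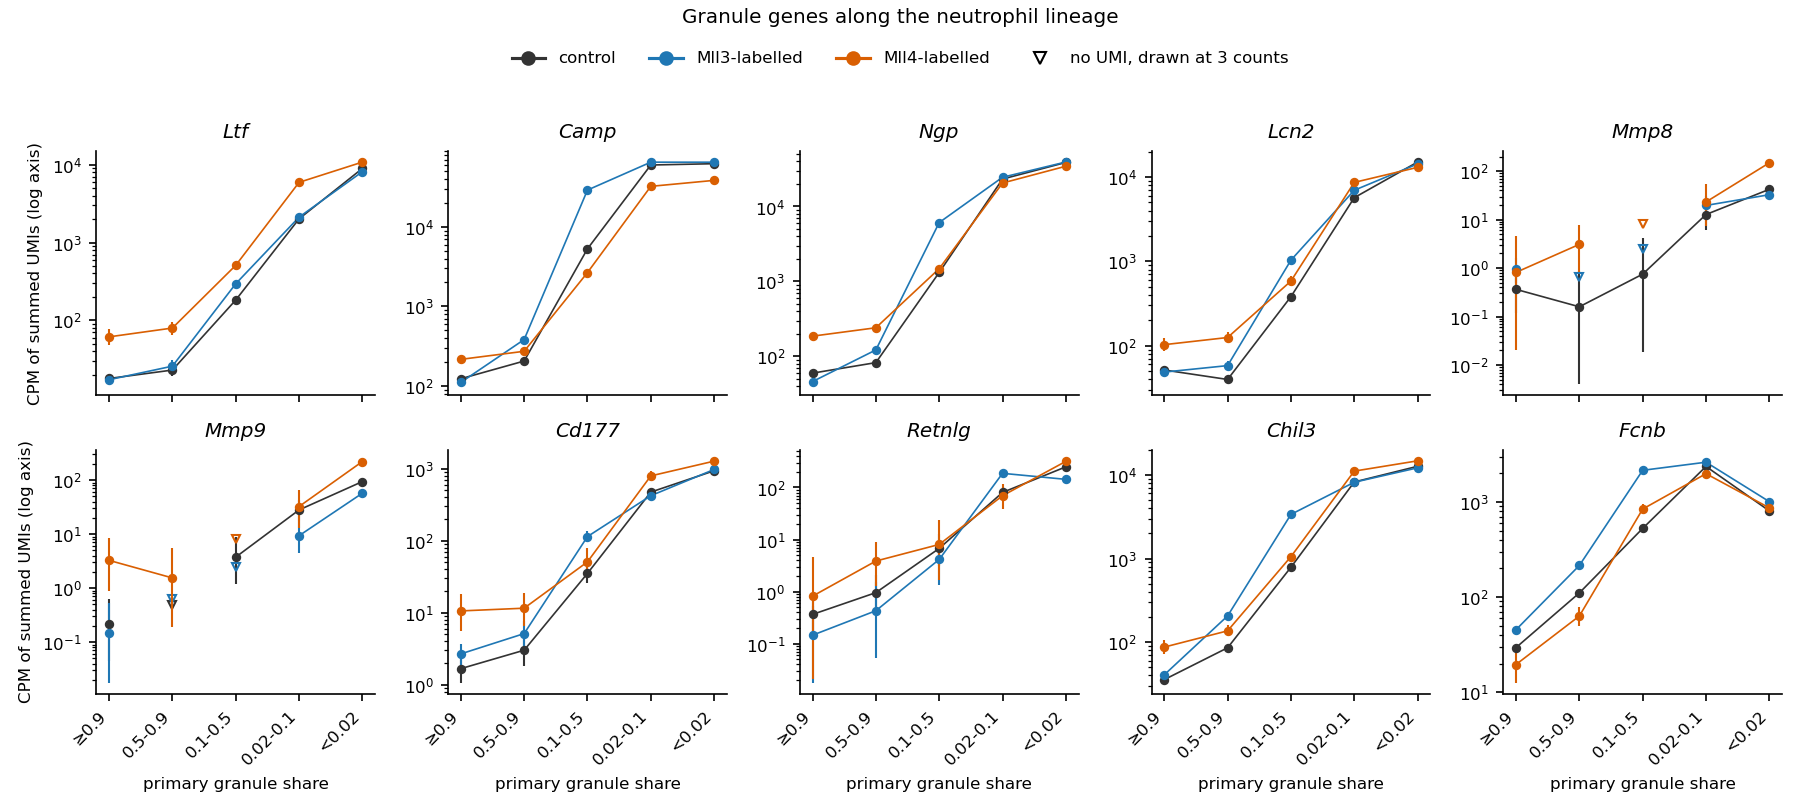
Level of each member (CPM of summed UMIs, log axis) over the 5 ranges of the primary granule share, from least mature at the left to most mature at the right, for control and the Mll3- and Mll4-labelled libraries, with exact 95% Poisson intervals. Fcnb peaks in the fourth range in all 3 libraries and Camp of the library labelled Mll3 stands above control in the middle range, at 29012 against 5298 CPM.

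At matched ranges 41 pairs of a member and a range could be compared for the library labelled Mll3, and 9 of them were 2-fold different, 8 higher and 1 lower. The middle range held 6 of these, all higher: Camp (2.45), Ngp (2.21), Chil3 (2.10), Fcnb (2.03), Cd177 (1.67) and Lcn2 (1.44). In that range 6.1% of all genes were higher and 14.4% lower. The other pairs past 2-fold were Chil3 between 0.5 and 0.9 (1.26), where 0.505% of genes were higher, and Retnlg (1.21) and Mmp9 (-1.49) between 0.02 and 0.1, where 0.898% were higher and 1.42% lower. The middle range holds 95 control cells and 76 cells of the library labelled Mll3, and 27 cells of that range over the libraries were neutrophil-like, so a shift of cells within the range and a change per cell cannot be told apart. Antibody quartiles of the neutrophil-like and granulocyte progenitor-like cells, with cuts set on the control cells, gave another direction. Within quartiles of the Gr1 count 15 of 36 pairs were lower and 0 higher, and within those of the CD117 count 6 of 39 were lower and 1 higher. The class mix of these quartiles was not taken, so how well they match maturity was not tested. Over all kept cells, with quartiles set within each library, the top Gr1 quartile was neutrophil-like to 91.7% in control. It was so to 68.1% in the library labelled Mll3. After thinning each cell to 2000 UMIs, 2 pairs were higher and 1 lower. In the most mature range the library labelled Mll3 had no member past 2-fold, where 0.551% of genes were.

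For the library labelled Mll4 11 of 39 pairs were 2-fold different, all higher. With TMM scaling 11 were higher and 3 lower, and after thinning to 2000 UMIs 8 were higher and 8 lower. Ltf was higher in the 4 less mature ranges, by 1.72, 1.75, 1.48 and 1.56 on the log2 scale, where 7.76%, 8.51%, 7.79% and 7.71% of all genes were higher. In CPM, Ltf there was at 17.8, 22.9, 182 and 2019 in control and at 61.2, 79.5, 509 and 5947 in the library labelled Mll4. In the most mature range Ltf differed by 0.27, and the members past 2-fold were Mmp8 (1.79) and Mmp9 (1.23), where 2.93% of genes were higher. The level of Ltf in erythroid progenitor-like cells, which should lack it, moved with the first 2 ranges: 15.6 CPM in control and 93.2 in the library labelled Mll4. Its part in the difference was not tested. The library labelled Mll3/4 had 20 cells in the most mature range, the fewest accepted for a range, so its values rest on little. The median log2 ratio there was -0.14 for the members and -0.17 for all genes. Members past 2-fold were Retnlg, at 2521 CPM against 249 in control, Mmp8, at 98.7 against 42.2, and Mmp9, at 195 against 93.9. All of these were higher and 0 members were 2-fold lower. The share of all genes past this limit is not given for these 20 cells, so the count is a description only. In the neutrophil-like class of that library, 1 cell held 44.8% of the Retnlg UMIs. For Mmp8 the highest cell held 37.2% and for Mmp9 34.9%.

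Mmp8, Mmp9 and Retnlg were concentrated in few cells. Cluster 11 was singled out after its values were seen, as the neutrophil-like cluster with the highest Retnlg level among those compared in control. Its high Retnlg in control thus follows from the choice. It held 30 control cells, 1.71% of the neutrophil-like class. Those cells held 51.8% of the class's Retnlg UMIs, 56.0% of its Mmp8 UMIs and 21.1% of its Mmp9 UMIs, but 0.0341% of its Fcnb UMIs. Retnlg stood at 19312 CPM in them and at 118 in the remaining control neutrophil-like cells, Mmp8 at 3535 and 18.3 CPM, and Mmp9 at 2960 and 72.8 CPM. Camp was lower in them, at 26063 against 62384 CPM, as were Chil3, at 1771 against 12579 CPM, and Fcnb, at 44.7 against 863 CPM. So Mmp8 and Mmp9, along with Retnlg, by which the cluster was chosen, were high in these cells where Camp, Chil3 and Fcnb were low.

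The library labelled Mll3 had 15 such cells, which held 62.7% of the Retnlg and 73.9% of the Mmp8 UMIs of the class. Under the label Mll4 the same cluster held 714 cells, 26.6% of the class, with 71.0% of its Retnlg, 73.1% of its Mmp8 and 54.7% of its Mmp9 UMIs. Their levels were well below those of the control cells of the cluster: 1147 CPM of Retnlg, 552 of Mmp8 and 614 of Mmp9. Fcnb (1082 CPM) and Chil3 (11893 CPM) were not low in them. The median cell of cluster 11 had 3380 UMIs. Without this cluster, 1 of 10 members was 2-fold higher in the neutrophil-like cells of the library labelled Mll4, in place of 2, and 2 were 2-fold lower in those of the library labelled Mll3, in place of 0. Of the 24 neutrophil-like cells labelled Mll3/4, 8 were in it and held 96.0% of the Retnlg UMIs of the class.

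Surface Gr1, an epitope of Ly6G and Ly6C that rises as neutrophils mature, gave a protein measure that the clustering did not use. Neutrophil-like cells were split into quartiles of the Gr1 antibody count within each library. From the lowest to the highest quartile Mmp8 went from 2.13 to 146 CPM in control, from 0.276 to 129 in the library labelled Mll3 and from 92.9 to 273 in the library labelled Mll4. The second quartile of the library labelled Mll3 had no Mmp8 UMI, so its low quartiles lie near the floor. In control 56.0% of the Mmp8 UMIs lay in the 30 cells of cluster 11, and where these fall among the quartiles was not tested. Mmp9 went from 12.1 to 254, from 6.35 to 173 and from 130.4 to 407 CPM, and Retnlg from 97.8 to 671, from 35.6 to 449 and from 199 to 590 CPM. Fcnb ran the other way in all 3 libraries, from 1187 to 493 CPM in control, from 1767 to 591 in the library labelled Mll3 and from 1120.5 to 587 in the library labelled Mll4. Camp hardly moved, with ratios of 0.972, 0.997 and 0.954 between highest and lowest quartile, and Ltf rose by 1.18, 1.57 and 1.09 times. The rise of Mmp8 over the quartiles was 68.5-fold in control and 2.93-fold in the library labelled Mll4, whose lowest quartile already had more Mmp8 than the third control quartile (11.7 CPM). Median UMIs per cell differed little over the control quartiles, from 13110 to 13999.

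**Figure D4:**
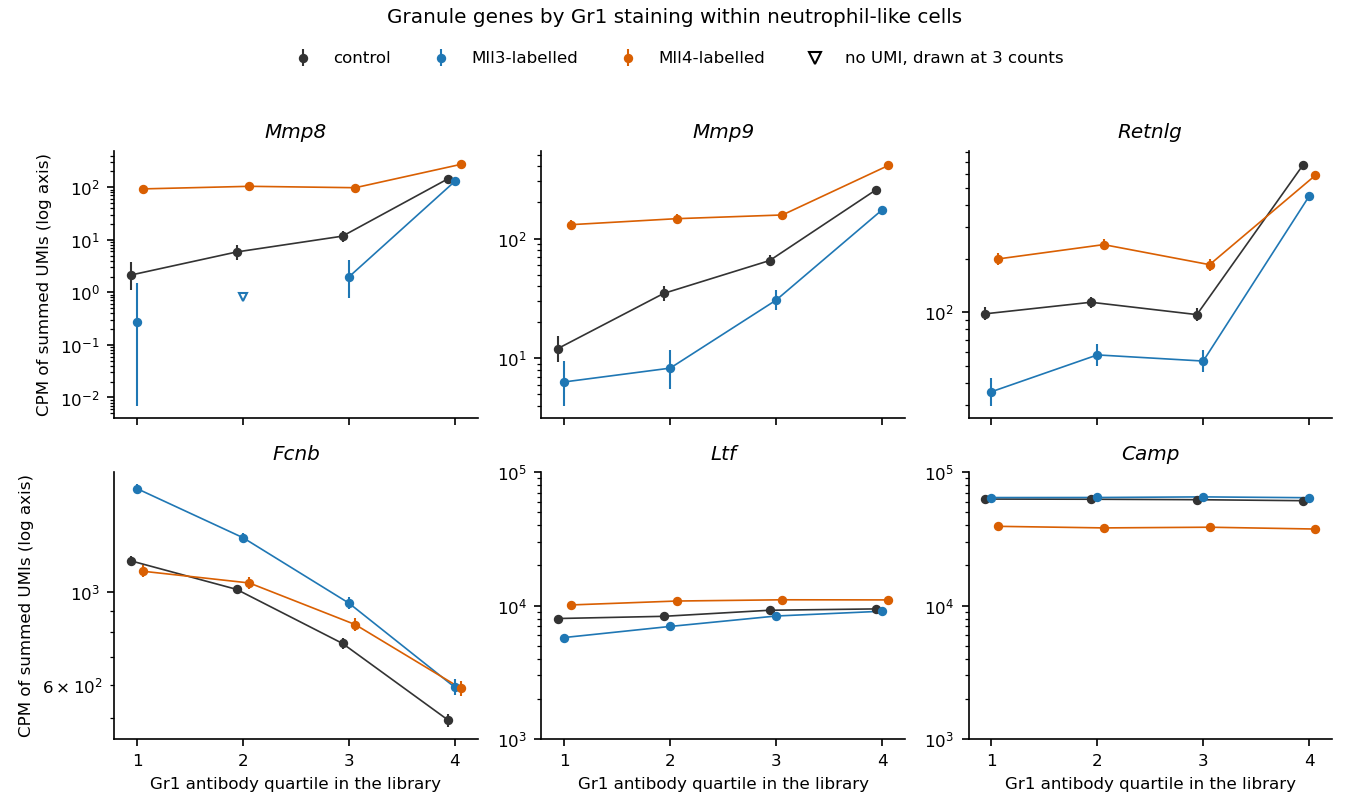
Member levels (CPM of summed UMIs, log axis) in neutrophil-like cells by quartile of the Gr1 antibody count within each library, with exact 95% Poisson intervals; open triangles mark no UMI, drawn at 3 counts. Mmp8, Mmp9 and Retnlg are highest in the top quartile of each library and Fcnb is lowest there.

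Quartiles of CD117 gave Mmp8 and Fcnb the same direction in each library, whereas quartiles of CD11b did not for Mmp8. By CD117, the protein the cells were sorted on, the highest quartile of neutrophil-like cells had 0.169 times the Mmp8 of the lowest in control, 0.0137 times with the label Mll3 and 0.270 times with the label Mll4, and 1.57, 1.6 and 1.5 times the Fcnb. Fcnb was thus higher, and Mmp8 lower, in cells with more CD117. By CD11b, the integrin subunit of mature myeloid cells, the Mmp8 ratio was 0.129 in control, 0.0464 with the label Mll3 and 2.27 with the label Mll4, so the last went the other way. Over all control cells, the top CD11b quartile was neutrophil-like to 95.7%.

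Each library carried 2 hashtags, which are antibody barcodes added to cells. The labels do not say what the hashtags mark, so the sets are not replicates of a named kind. In control the 2 hashtag sets had similar levels of every member, with ratios of hashtag 2 to hashtag 1 from 0.834 for Mmp9 to 1.12 for Mmp8 over all kept cells. In the library labelled Mll3 they did not. Ltf was at 465 CPM with hashtag 1 and 1261 with hashtag 2, Camp at 4606 and 10214, Mmp8 at 0.604 and 7.38, Mmp9 at 1.67 and 11.1, and Retnlg at 5.12 and 29.7 CPM. Neutrophil-like cells made up 11.5% of 3119 cells with hashtag 1 and 24.6% of 2496 cells with hashtag 2. Set against control cells of the same hashtag, 9 of 10 members were at least 2-fold lower with hashtag 1 and 0 of 10 with hashtag 2. The share of all genes past this limit was not taken for either set. The lower member levels of the library labelled Mll3 thus rest on the first set, and whether other genes move likewise was not tested.

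Within the neutrophil-like cells of the library labelled Mll3 the hashtag sets still differed for Mmp8, Mmp9 and Retnlg. Mmp8 was at 7.89 CPM with hashtag 1 and 46.5 with hashtag 2, Mmp9 at 22.7 and 71.7, and Retnlg at 72.0 and 192 CPM. Camp was at 64683 and 64763 CPM, and Fcnb at 1382 and 1051 CPM. In control the same ratios stayed between 0.934 and 1.21. For the library labelled Mll4 the ratio over all kept cells ran from 1.22 for Fcnb to 2.78 for Mmp8. With hashtag 1 alone 1 of 10 members was 2-fold higher in neutrophil-like cells, again with no share of all genes taken. Retnlg was at 26.1 CPM in the library labelled Mll3/4 with hashtag 1 and 0.623 with hashtag 2.

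**Figure D5:**
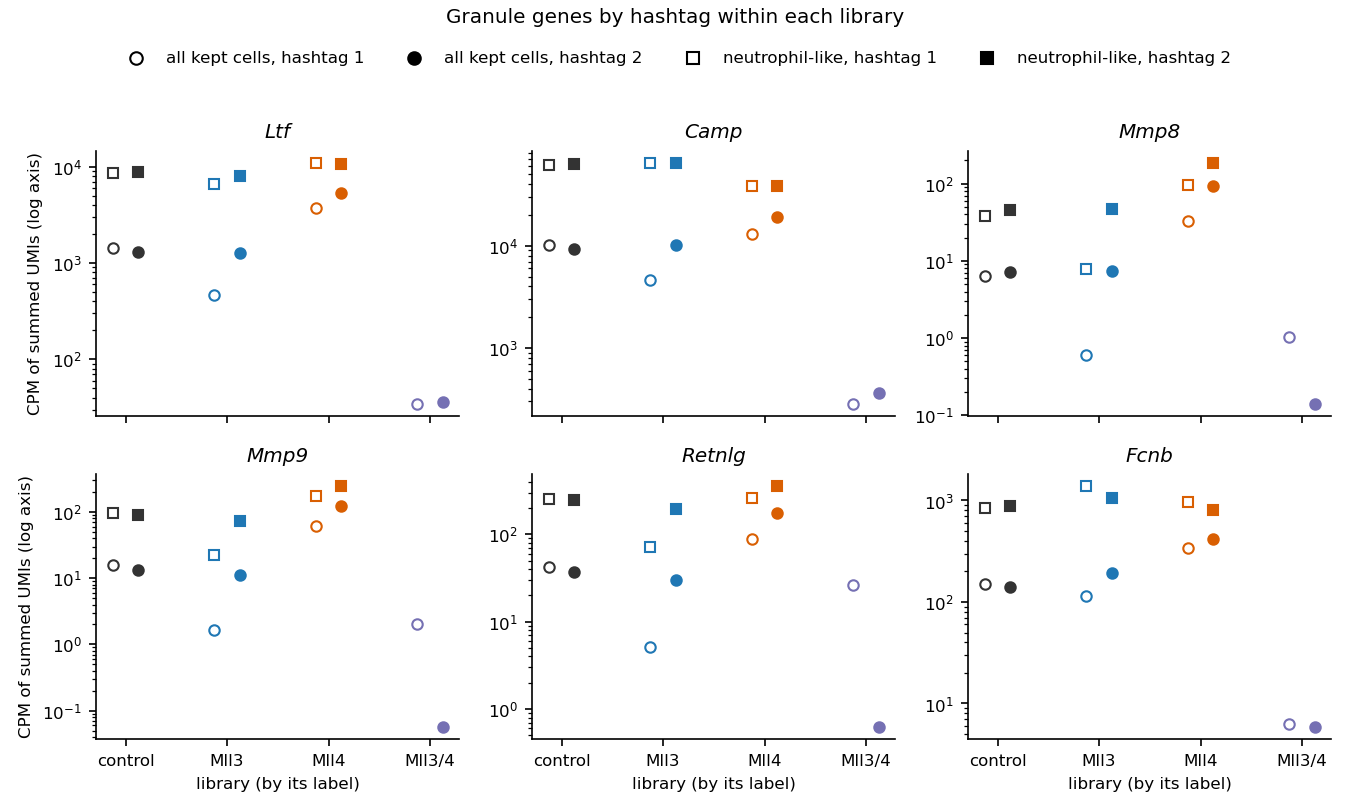
Level of 6 members (CPM of summed UMIs, log axis) in cells with hashtag 1 only or hashtag 2 only of each library, over all kept cells (circles) and within neutrophil-like cells (squares; not drawn for the 24 cells of the library labelled Mll3/4). The pairs lie together in control and apart in the library labelled Mll3, where Ltf over all kept cells is at 465 and 1261 CPM.

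Outside the neutrophil lineage every abundant member was detected at a low level. In control, Camp was at 95.4 CPM in erythroid progenitor-like cells, 225 in stem and multipotent progenitor-like (HSC/MPP-like) cells and 368 in B-cell progenitor-like cells, which is 0.153%, 0.362% and 0.592% of its neutrophil-like level. In erythroid progenitor-like cells the abundant members Camp, Ngp, Lcn2, Chil3 and Ltf were present in nearly the same proportions as in neutrophil-like cells. The scarcer members were less even there in control. Mmp8 was at 0.825% of its neutrophil-like level, Retnlg at 0.324%, Mmp9 at 0.193%, Fcnb at 0.125% and Cd177 at 0.124%. The proportions of the abundant members differed more in control monocyte/macrophage progenitor-like cells. Camp was at 0.233% of its neutrophil-like level in these, but Ltf at 0.520% and Chil3 at 0.536%. In control neutrophil-like cells Camp made up 44.9% of member UMIs, Ngp 27.6%, Lcn2 10.7%, Chil3 9.03% and Ltf 6.32%, and in erythroid progenitor-like cells 46.8%, 23.4%, 10.0%, 10.4% and 7.63%. Camp made up, in the library labelled Mll4, 33.7% of member UMIs in neutrophil-like and 34.2% in erythroid progenitor-like cells. Free RNA from neutrophils would carry such a mixture, and its part was not tested.

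In the library labelled Mll4, with its larger share of neutrophil-like cells, the members were also higher in the classes outside the lineage. There 7 of 9 were 2-fold higher in erythroid progenitor-like cells, where 3.75% of genes were, 6 of 7 in HSC/MPP-like cells, where 4.5% were, 5 of 7 in monocyte/macrophage progenitor-like cells, where 7.39% were, and 4 of 5 in B-cell progenitor-like cells, where 8.19% were. Of the UMIs in those 143 B-cell progenitor-like cells, the highest single cell held 25 of 64 for Ltf, 61 of 131 for Chil3 and 31 of 192 for Ngp. Camp in erythroid progenitor-like cells was at 340 CPM there, and at 81.7 CPM in the library labelled Mll3. In the B-cell progenitor-like cells of the library labelled Mll3 2 of 6 members differed 2-fold, Ltf (-1.24) and Fcnb (1.31), where 2.31% of genes did in either direction.

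The B-cell progenitor-like cells of the library labelled Mll3/4, 6830 cells, had the lowest levels. Different clusters hold this class: clusters 0, 5, 12, 21 and 22 most of it in that library, and clusters 16 and 20 most of it in control. Camp was at 6.55 CPM against 368 in the 471 cells of control, 56.1 times lower, and Ltf at 0.567 against 55.6 CPM. Of 7 members compared, 6 were 2-fold lower, where 7.39% of genes were, and Retnlg was the exception. Retnlg had 177 UMIs in these cells, 170 of them in 1 cell, and 7 cells with a UMI in all. Mmp9 had 8 UMIs, all in 1 cell. The neutrophil-like share of this library was 0.347% and that of control 24.6%.

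A small cluster of 204 cells with a median of 1364.5 UMIs was led by Ltf, Chil3 and Ngp but scored highest for erythroid markers, and was given no name. It held 59 control cells, 137 of the library labelled Mll3, 8 of the library labelled Mll4 and none of the library labelled Mll3/4. With the 2 further clusters that stayed unnamed, its cells had 121 CPM of Ltf in control and 141 in the library labelled Mll3.

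Other genes of the pathway were counted from lists of related granule genes and regulators. Of 9 primary granule genes 8 had enough counts. Over all kept cells 0 of these 8 were 2-fold different in the library labelled Mll3, where 0.199% of all genes were higher and 0.467% lower. In the library labelled Mll4 2 were higher, Lyz2 (1.23) and Ctsc (1.08), where 5.74% of genes were. In the library labelled Mll3/4 6 were lower, where 11.7% of genes were. Within neutrophil-like cells 2 were higher in the library labelled Mll3, Elane (1.41) and Prtn3 (1.26), both serine proteases of azurophil granules. There 0.605% of all genes differed in either direction. In the neutrophil-like cells of the library labelled Mll4 0 differed, where 2.93% of genes were higher. Among the members, Fcnb had the highest ratio in the comparison of the library labelled Mll3.

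Of 18 other genes of specific granules, gelatinase granules and secretory vesicles 17 were compared. Over all kept cells 12 were higher in the library labelled Mll4, where 5.74% of all genes were. Fpr2 (2.99), a formyl peptide receptor, Orm1 (2.39) and Olfm4 (2.05) were at the top. In the library labelled Mll3/4 15 were lower, where 11.7% of genes were, among them Pglyrp1 (-4.56), Itgam (-4.49) and Cybb (-4.41). With the label Mll3, 1 was lower, Fpr2 (-1.21), where 0.467% of genes were. Within neutrophil-like cells Fpr2 was higher in the library labelled Mll4 (1.62), as Mmp8 and Mmp9 were, Chil1 was lower there (-1.16), and Fpr1 was lower in the library labelled Mll3 (-1.04). Of 9 regulators, 3 were higher over all kept cells of the library labelled Mll4, Gfi1 (1.92), Cebpa (1.78) and Cebpd (1.14). In the library labelled Mll3/4 7 were lower, with Cebpe, the factor of the specific granule stage, at -4.70. The shares of all genes are those given above, 5.74% and 11.7%. Within neutrophil-like cells 1 regulator passed 2-fold, Gfi1 in the library labelled Mll4 (1.27), where 2.93% of genes were higher.

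Over 30 units of 1 class in 1 library, which share libraries and depth, the members split by the genes they ran with. The correlation is Pearson's r of log2(CPM + 1) and is a description. Camp, Ngp, Lcn2 and Chil3 were nearest to S100a9 and S100a8, themselves class markers, with r from 0.968 to 0.986, and Ltf to S100a9 (0.941), Orm1 (0.936) and Ly6g (0.933). Cd177 was nearest to Orm1 (0.972) and Adpgk (0.966). Mmp8 was nearest to 9830107B12Rik (0.966) and Lin28a (0.953), Mmp9 to F730016J06Rik (0.955) and 1700047M11Rik (0.951), and Retnlg to Ceacam10 (0.955) and Cstdc5 (0.948). Fcnb was nearest to Ncam1 (0.958), C3 (0.944) and Trem3 (0.942). Among the members themselves the closest pair was Ngp and Lcn2 (0.996), and the pair farthest apart was Fcnb and Retnlg (0.780).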

How the data were processed

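UMI counts per gene and antibody were deposited as filtered matrices, with no normalization, made by the authors with Cell Ranger 6.1.2 on mm10, per the submitters' processing notes; the annotation release is not given in the sources used here. Barcodes with at least 500 genes, 1000 UMIs and at most 10% mitochondrial UMIs were kept, and the highest Scrublet scores (0.8% per 1000 barcodes) were removed as doublets: 622, 481, 299 and 491 cells in control, Mll3-, Mll4- and Mll3/4-labelled libraries. The remaining cells had 153615605, 135986150, 32777830 and 77657652 UMIs. Cells were clustered with scanpy 1.11.5 (2000 variable genes without the 10 members, 30 principal components, 15 neighbours, Leiden resolution 1) and classed from fixed markers of 13 classes. A cluster whose 10 leading genes went against its name stayed unnamed, and clusters led by the members were added to that rule after seeing them. Counts were summed per class and library and scaled to CPM, with exact Poisson 95% intervals; shares have exact Clopper-Pearson intervals. Differences from control are log2 ratios with a pseudocount of 1 CPM, called at 2-fold with at least 20 counts in either library. The antibody counts were used as deposited. All 10 members are named, along with up to 3 genes of each related list with the largest ratios past 2-fold and the 2 or 3 genes most like each member. The members and lists were chosen with earlier results of these data known. Ratios were tested on simulated data. Gene positions are from GENCODE M21 on GRCm38. Alternatives covered scaling (TMM in edgeR 4.0.16), pseudocount, minimum count, filters, doublets, clustering, thinning and hashtags. The Gr1 antibody quartiles, the antibody quartiles within neutrophil-like cells, the fit without cluster 11 and the one with all barcodes were added after seeing the data. The CD117 quartiles at matched maturity were planned.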

Additional observations from a re-analysis of the deposited data

How the results depend on the processing

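The number of members at least 2-fold different from control was recomputed under each alternative, by cell class and at matched maturity. Of the counts by class 119 stayed within 1.5 times the reported one and 23 moved and 1 turned in direction. For the library labelled Mll3 over all kept cells (2 lower) it became 0 with a pseudocount of 10 CPM, 1 with the mean of each cell's CPM, 1 after thinning, 9 with hashtag 1 only and 0 with hashtag 2 only. Within its neutrophil-like cells (0) it became 3 with hashtag 1 only and 2 without cluster 11. For neutrophil-like cells of the library labelled Mll4 (2) it became 1 after thinning, 1 with hashtag 1 only and 1 without cluster 11. In granulocyte progenitor-like cells the Mll3-labelled count (2) became 4 with a pseudocount of 0.1 and 1 with a pseudocount of 10, and 1 with the members kept in the clustering, resolution 0.5, another seed, or genes centred within library. With no doublet removal it was 2 lower in place of 2 higher, in other members: Camp and Chil3 fell back to log2 ratios of 0.47 and 0.32. The Mll4-labelled count (6) became 2 after thinning. In B-cell progenitor-like cells the Mll3-labelled count (2) became 1 with a minimum of 100 counts, 0 with a pseudocount of 10, 1 with at most 5% mitochondrial UMIs, 0 after thinning and 1 at resolution 0.5, and the Mll4-labelled count (4) became 7 with no minimum count. At matched maturity, the direction also turned with antibody quartiles of the neutrophil-like and granulocyte progenitor-like cells, whose class mix was not taken. The pairs in the library labelled Mll3 (9, of which 8 higher) became 15, all lower, with Gr1 quartiles. They became 7, of which 6 lower, with CD117 quartiles, and 3 after thinning. Those in the library labelled Mll4 (11) became 17 with no minimum count, 18 at resolution 0.5, 19 with genes centred and 20 with CD117 quartiles. The Mll4- and Mll3/4-labelled counts over all kept cells ran from 6 to 10 and from 8 to 10. The alternatives were counted for the members only, so no share of all genes stands beside these counts. The cause of these moves was not tested. No paired analysis was possible because each group has 1 library. Depth limits Mmp8 and Mmp9, with 49 and 91 UMIs in the library labelled Mll3/4.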
